A study of Mus musculus with 6 samples.

Results

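The cytosolic ribosomal protein genes were followed in inguinal lymph nodes of mice with experimental autoimmune encephalomyelitis (EAE), a model of multiple sclerosis. Members were the rows whose symbol reads Rpl or Rps plus a digit, with Rplp0, Rplp1, Rplp2 and Rpsa added. Pseudogene symbols and the 10 kinases of the Rps6k kind were left out. The rule took 86 of 23307 genes: 46 genes of the large (60S) subunit, 31 of the small (40S) subunit, 8 paralogues, and Rps19bp1, a nucleolar protein that binds Rps19 and carries a similar name. The groups were 3 SJL mice given perampanel therapeutically and 3 SJL control mice. Perampanel is used against epilepsy and inhibits AMPA receptors for glutamate. All 6 mice had EAE and were sampled on day 3 after induction. Nodes were meshed to a cell suspension before poly(A) RNA was sequenced. The labels give no dose, age or control agent. They count 3 mice in each group, so the spread behind each test is the one between these mice.

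A cytosolic ribosome joins a small subunit, which reads the mRNA, to a large subunit, which forms the peptide bond. Each subunit needs its proteins in matched amounts, and a protein left unassembled is normally degraded. In T cells, activation brings growth and ribosome production under MYC and mTORC1. These mRNAs typically begin with a C followed by a run of C and T, the terminal oligopyrimidine (TOP) tract, through which mTORC1 and the RNA binder Larp1 control their translation.

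The start sites of several members are shown because this tract is the feature that the class is known to share. They do not represent the class: most of those shown hold a motif in the printed bases, whereas most members do not. The 30 bases run 5′ to 3′ on the gene's strand, from 10 before the RefSeq start (build GRCm38.p6) to the first 20 of the gene, and capitals mark the letters CTTTCC or CTTTTC.
Rps27: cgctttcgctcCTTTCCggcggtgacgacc
Rps27rt: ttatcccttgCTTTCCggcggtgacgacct
Rpl38: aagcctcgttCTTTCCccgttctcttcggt
Rpl28: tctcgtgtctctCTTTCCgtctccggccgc
Rpl15: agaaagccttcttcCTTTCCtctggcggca
Rpl13a: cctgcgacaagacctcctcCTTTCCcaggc
Rpl12: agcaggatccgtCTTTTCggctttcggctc
Rps10: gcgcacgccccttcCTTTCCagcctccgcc
Rpl41: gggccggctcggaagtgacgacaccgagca
Rps27l: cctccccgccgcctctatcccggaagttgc
Rps27 lies on the minus strand at chr3:90213629-90213658 and Rps27l on the plus strand at chr9:66946076-66946105. Rps27 and its retrogene Rps27rt share the letters that follow the start, whereas the start of Rps27l, the diverged paralogue, holds neither motif in this stretch, and neither does that of Rpl41. Of the 86 members, 66 were matched by symbol in the RefSeq promoter table. Within 50 bases of the start, 28 of these 66 (42.4%) held CTTTCC or CTTTTC on the gene's strand, against 7.16% of 16518 genes. Counting both strands, the shares were 47.0% and 13.1%. The 2 motifs can share no more than an end C. This window is wider than the 30 bases shown. A match in it can lie before the start (Rpl22 at -32) or well after it (Rpl6 at 35), so it need not be a TOP tract. Other motifs were searched as well. CCGGAAG, the core of the GABPA site, stood in 18.2% of the members on either strand and in 7.52% of all genes. AAGATGGC, which YY1 binds, stood in 6.06% and 2.02%, and TATAAA in 7.58% and 5.22%. A match describes letters in this window only, and RefSeq starts can lie away from the main site of initiation: that of Rps10 is 769 bases from its GENCODE start.

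Each library held 1779724 to 2003726 reads under perampanel and 2036072 to 2208589 in controls, so every perampanel library was the shallower. T cell markers summed to 11484 to 12021 normalized read counts under perampanel and 10545 to 11572 in controls over 7 genes, 1 of which changed. B cell markers summed to 46.9 to 66.6 under perampanel and 56.9 to 114 in controls over 6 genes. Sums for the other cell types listed were low too, the highest being stroma at 202 to 245 under perampanel and 177 to 206 in controls. By these markers the RNA came mainly from T cells, so the shares below are not those of an evenly mixed node. Mitochondrially encoded transcripts of any kind took 10.34% to 10.77% of reads under perampanel and 9.84% to 10.30% in controls, without overlap. The part of depth, of these markers and of the mitochondrial share in the results was not tested. Normalized read counts are reads divided by 1 size factor per library, as deposited. They are relative to the other mRNAs of a library, so a change shared by all mRNAs of a cell could not be seen, and in these suspensions fewer cells of a type and less RNA per cell cannot be told apart.

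Ribosomal protein mRNAs took a large and steady share of each library. In perampanel 1, 2 and 3 they took 21.223%, 20.822% and 21.180% of reads, and in controls 1, 2 and 3 they took 21.229%, 21.275% and 21.233%. All 3 perampanel libraries lay below all 3 controls, perampanel 1 only just. This was the order of shares of all reads, in which mitochondrial transcripts took more in every perampanel library. In normalized read counts the order did not hold. There the median deviation of members from their own mean was 0.021 and 0.010 on the log2 scale in perampanel 1 and 3. Controls were at 0.0096 or below, and perampanel 2 was at -0.025. The mean shares were 21.1% ± 0.220 under perampanel and 21.2% ± 0.0256 in controls (SD, n = 3 each), so the difference of -0.17 percentage points was smaller than the SD among perampanel mice. Perampanel 2 was the lowest of the 6 libraries, and without it the difference was -0.044. The large subunit took 10.2% ± 0.0936 under perampanel and 10.3% ± 0.0379 in controls, and the small subunit 10.6% ± 0.125 and 10.7% ± 0.0466. The ratio of large to small subunit reads was 0.962 ± 0.00335 under perampanel and 0.965 ± 0.00747 in controls, with overlapping groups. Among the 100 genes with the highest mean read counts in the table, 63 were members.

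**Figure D1:**
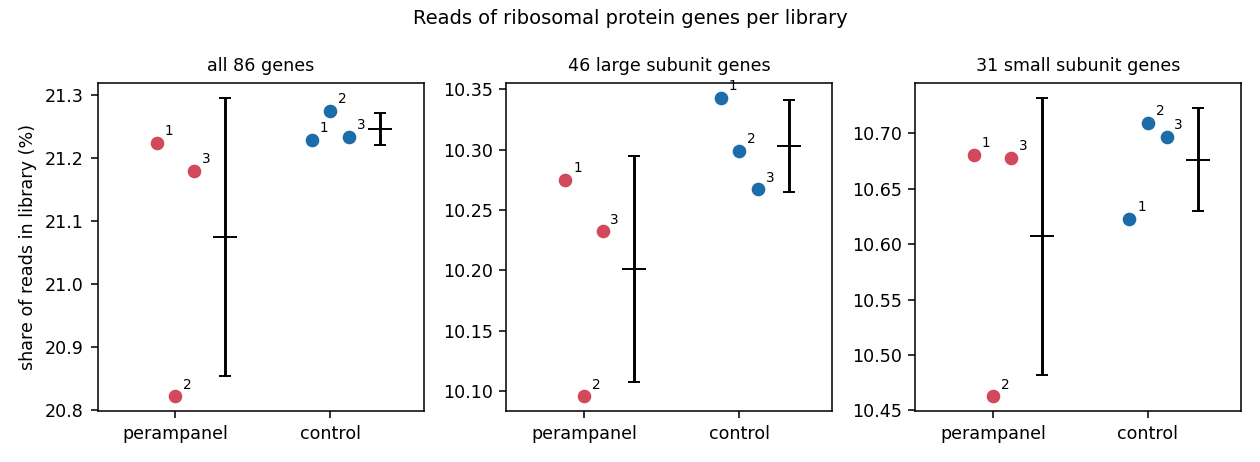
Share of each library's reads (%, vertical axes that do not start at 0) for all 86 genes, the large subunit and the small subunit. Points are libraries numbered by replicate, and bars are the mean and SD of 3. Perampanel 2 lies below the other libraries in each panel, and the other perampanel libraries lie within 0.1 percentage points of the lowest control in the panel of all genes.

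Levels per length spanned a wide range within the class and were in nearly the same order in both groups. Per kilobase of annotated transcript, the subunit genes had a median of 4870 normalized reads for the large and 8903 for the small subunit. The 5 highest were Rps27 (36568 per kb), Rps28 (22896), Rps29 (21968), Rplp1 (18682) and Rps12 (17773), which all encode short proteins. Rps27, Rps28, Rps29 and Rps12 belong to the small subunit, and Rplp1 is an acidic stalk protein of the large subunit that recruits elongation factors. At the low end among subunit genes stood Rps10 (339 per kb) and Rpl13a (370 per kb). Rps10 sits at the head of the small subunit, and Rpl13a is known in human myeloid cells as a translational silencer when released from the ribosome. All others among the 77 subunit genes were at 1134 per kb or above, the lowest being Rps15a, for which the annotated transcript used is unusually long. The order of levels was nearly identical in the 2 groups (Spearman's rho 0.999 across 77 genes, which share libraries and gene lengths).

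**Figure D2:**
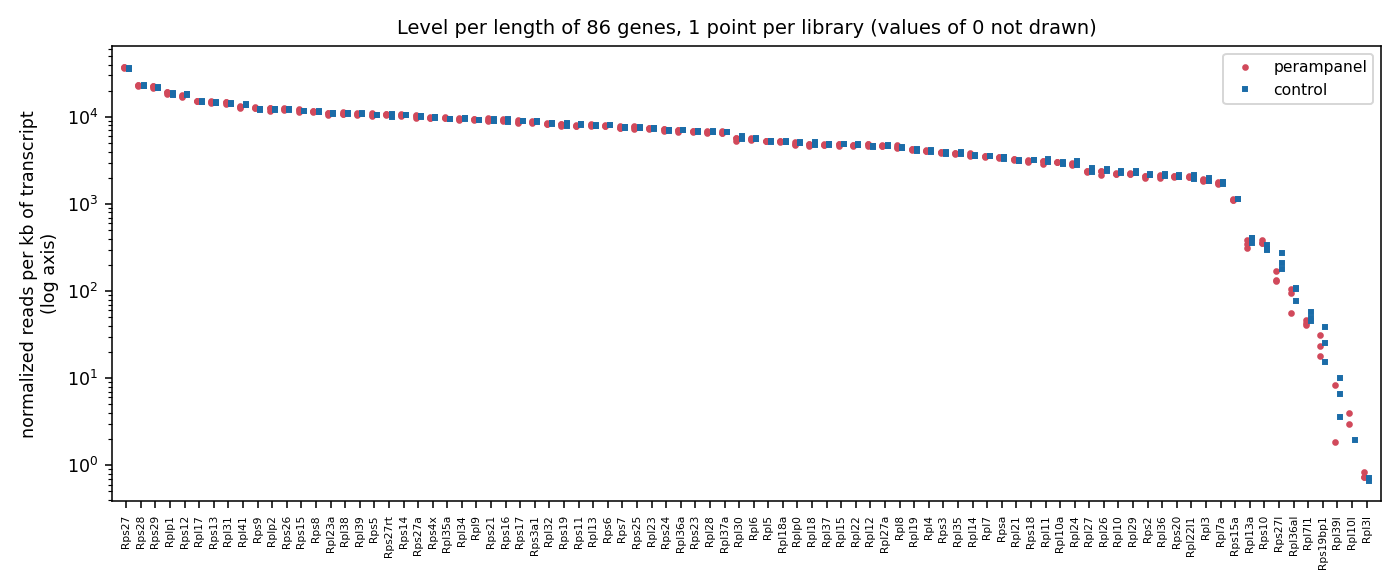
Normalized reads per kb of transcript (log axis) for the 86 genes in order of their mean, with 1 point for each perampanel library and 1 for each control library. The points of both groups coincide for most genes down to Rps15a at 1134 per kb, and spread apart at the low-count paralogues on the right.

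Many members share sequence with processed pseudogenes, so part of these levels is uncertain. A stretch of 50 bases served as the unit. In the median member 53.5% of such stretches of its transcript also occurred in transcripts of another annotated gene, 50 of the 86 members had more than 50% shared, and 4 had none. For Rps27 the share was 98.6%, all of it with the retrogene Rps27rt, itself a member at 10611 per kb, and parts of it with 8 pseudogenes, so how reads were divided among these genes is uncertain. Rps10 was at 92.4% and Rpl13a at 57.4%. Across the 77 subunit genes level per kb and shared percentage had a Spearman's rho of -0.07, given as a description. The authors' table holds 19 rows outside the class that carry at least 10% of the stretches of a member, such as Gm10073 (3200 normalized reads), which shares 60% of Rplp1, and Wdr89 (2449), which shares 65.1% of Rplp2.

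No ribosomal protein gene passed the test for a change under perampanel. Of 86 members 83 had a mean of 10 or more normalized read counts and were tested. Of these, limma called 0 (Benjamini-Hochberg adjusted p under 0.05), against 1.1% of all 9076 genes tested. At an unadjusted p under 0.05 there were 4 members, 2 higher and 2 lower, against a background of 9.33%. The median log2 fold change was 0.00040 over members and 0.0014 over all genes tested, with 42 members above 0 and 41 below. The median absolute log2 fold change was 0.024 over members and 0.13 over all genes tested. The edgeR quasi-likelihood test on recovered reads called 0 members, against 1.19% of genes, and DESeq2 called 0 of 81, against 1.33% of the genes it gave an adjusted p. By the authors' deposited table, 0 of the 80 members with an adjusted p passed 0.05, against 1.66% of genes, and the smallest was 0.226 for Rpl41. Rps27l has no adjusted p there.

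The intervals were narrow enough to bound the change for most members. The 95% interval from limma lay within ±0.1 on the log2 scale, a change of about 7.18%, for 44 of 83 members, or 53%, compared with 0.573% of all genes tested. It lay within ±0.2, about 14.9%, for 76 members (91.6%), compared with 4.58%. Among the 159 genes outside the class whose mean reached 1000 normalized reads, 8 (5.03%) had an interval within ±0.1, and 12 were called higher and 4 lower. They were not matched in level to the 86 members, whose median was 4969 normalized reads. The part of level in these differences was not tested. The median residual SD between mice of 1 group was 0.031 on the log2 scale for members, 0.058 for those 159 genes and 0.19 for all tested. Reads of members still varied more than counting error alone gives, with a median chi-square per degree of freedom of 2.31 within groups, against 2.95 for the 159 genes.

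**Figure D3:**
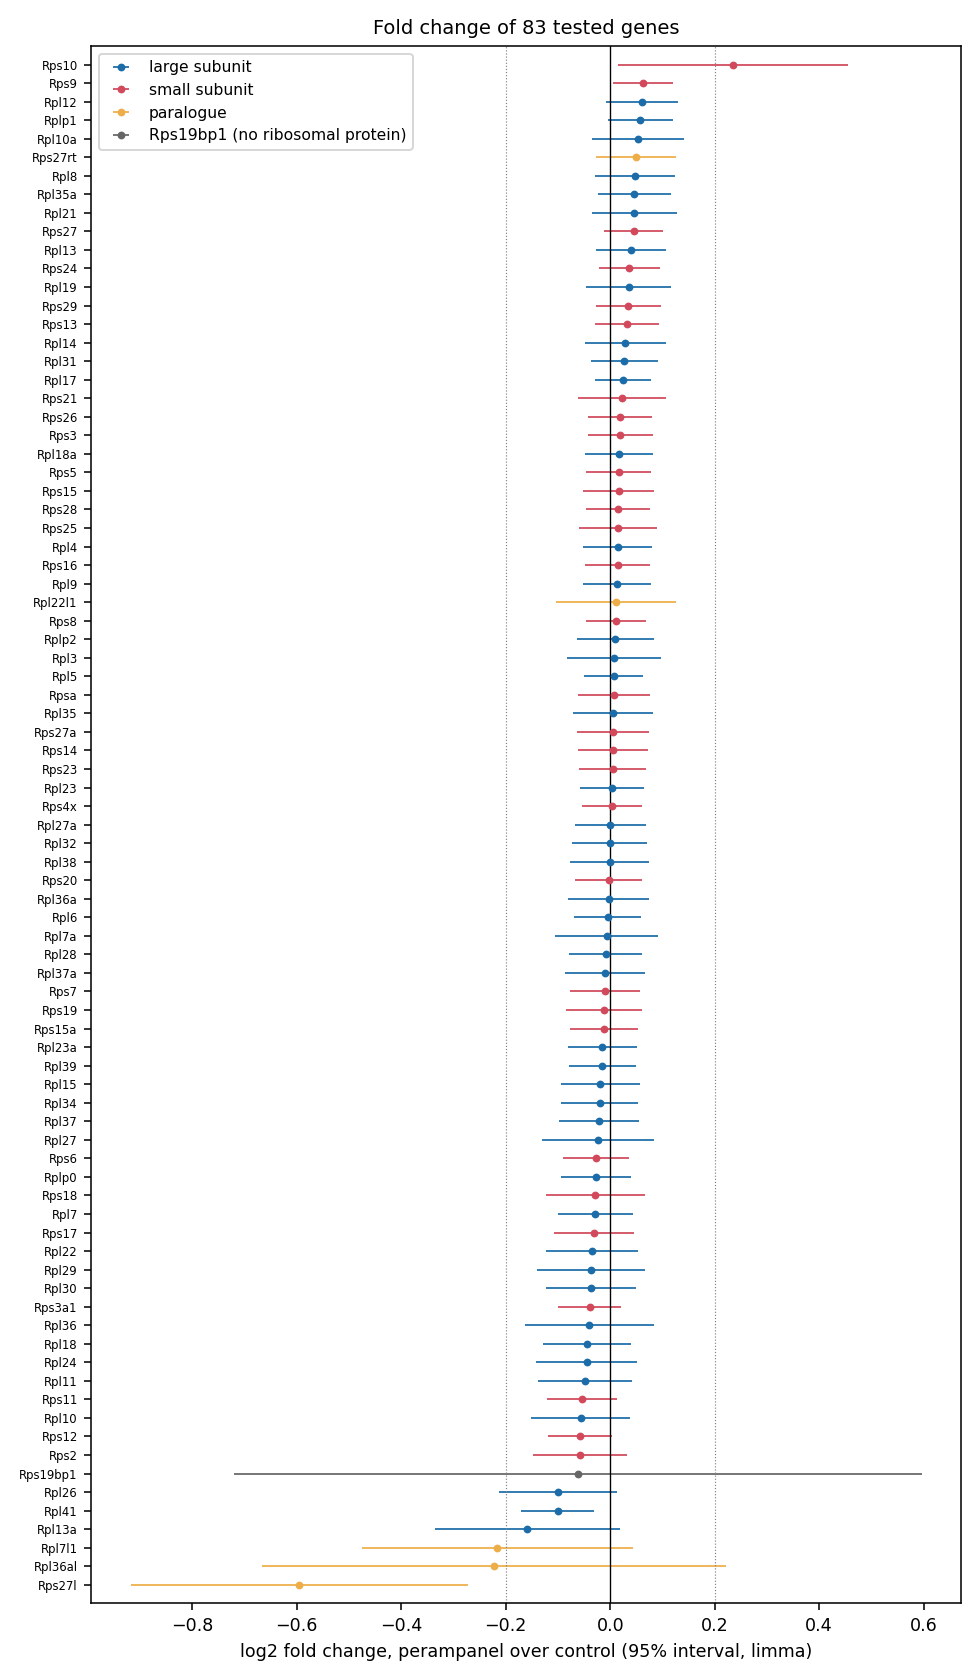
Log2 fold change of perampanel over control for the 83 tested genes in order of size, with 95% limma intervals, coloured by class. Dotted lines mark -0.2 and 0.2: 76 intervals lie between them, and those of Rpl36al, Rpl7l1, Rpl13a, Rpl26, Rps10 and Rps19bp1 cross them. The interval of Rps27l lies wholly below -0.2.

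**Figure D4:**
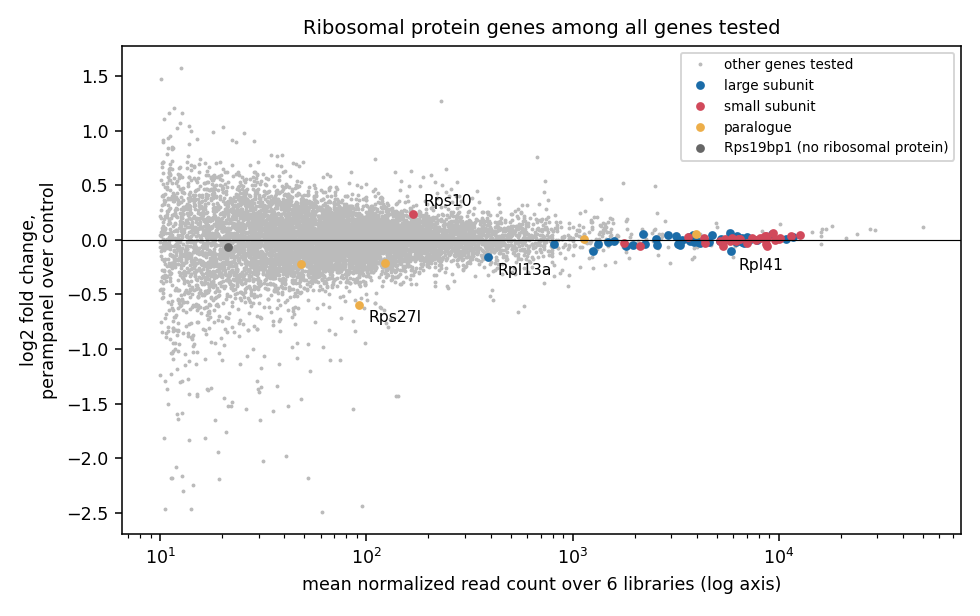
Log2 fold change of perampanel over control against the mean normalized read count (log axis) for the 9076 genes tested, members coloured by class. Members form a narrow band around 0 at the right, and Rps27l at -0.60 is the farthest from 0.

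Genes of the large subunit showed no call. Of 46 tested, 20 had a positive and 26 a negative fold change (median -0.0040), and the interval lay within ±0.2 for 44. Rplp0, the core of the stalk, had 6982, 6543 and 6661 normalized read counts under perampanel and 6794, 6957 and 6817 in controls. These groups overlapped, with a log2 fold change of -0.03 (95% interval -0.09 to 0.04). The stalk's acidic proteins Rplp1 (0.06, interval -0.0048 to 0.12) and Rplp2 (0.01) and Rpl12 at its base (0.06) did not pass either. Rpl5 and Rpl11 form with 5S rRNA a particle that holds the p53 ligase Mdm2 in check when ribosome assembly fails. Rpl5 was at 10817 ± 108 under perampanel and 10767 ± 183 in controls (SD, n = 3 each; log2 0.0068, interval -0.05 to 0.06), and Rpl11 was at -0.05 (-0.14 to 0.04). Of 9 genes at the mouth of the peptide tunnel, 4 were above 0 and 5 below. The X-linked Rpl10, which lets the subunits join, was at -0.06, and Rpl39, Rpl36a and Rps4x, also on chromosome X, were within 0.02 of 0.

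Rpl41, which encodes a very short basic peptide of the large subunit (chromosome 10, 128548114 to 128549305, GRCm38, protein-coding), was the subunit gene with the smallest p. It had 5789, 5484 and 5641 normalized read counts under perampanel and 6234, 5965 and 5934 in controls. All 3 perampanel libraries lay below all 3 controls. The log2 fold change was -0.10 ± 0.03 (SE, limma adjusted p = 0.225), and only quantile normalization gave a call (limma adjusted p = 0.0103, log2 -0.10). With reads of Gm10076, a row that shares 53.1% of its stretches, added to Rpl41 the fold change was -0.10 (adjusted p = 0.222).

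Rpl13a had 327, 368 and 404 normalized read counts under perampanel and 374, 423 and 429 in controls, which overlapped (log2 -0.16, 95% interval -0.34 to 0.02, and -0.08 without perampanel 1). Rpl26, which in human cells also promotes translation of p53, had 1120, 1251 and 1253 under perampanel and 1327, 1288 and 1264 in controls. Its perampanel libraries were all below the controls, by as little as 1253 against 1264, and the log2 fold change of -0.10 did not pass limma (adjusted p = 0.606). Without perampanel 1 it was -0.05.

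Genes of the small subunit likewise showed no call. Of 31 tested, 20 were positive and 11 negative (median 0.0066), with the interval within ±0.2 for 30. Rpsa, a protein of the mRNA exit side whose gene underlies congenital asplenia in humans, was at 5472 ± 93.1 under perampanel and 5447 ± 111 in controls (log2 0.0066, interval -0.06 to 0.08). Rps6, the substrate of the S6 kinases downstream of mTORC1, had 6882, 7117 and 6888 under perampanel and 7094, 7089 and 7098 in controls, with overlapping groups (log2 -0.03). It was named after its values were seen, as were Rps4x and Rps15a.

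The exception at the wide end was Rps10 (chromosome 17, 27630418 to 27636669), with 179, 193 and 176 normalized read counts under perampanel and 167, 151 and 148 in controls. Its perampanel libraries were all above the controls. The log2 fold change was 0.23 ± 0.11 (SE, limma adjusted p = 0.479, 95% interval 0.015 to 0.45), at 1017 reads in all 6 libraries together. Rps9, a core protein of the subunit body, had 9657, 9561 and 9502 under perampanel and 9095, 9166 and 9229 in controls. These groups did not overlap either, yet the difference was only 0.06 ± 0.03 on the log2 scale (adjusted p = 0.458). Rps12 went the other way, at -0.06 (interval -0.12 to 0.0043), and Rps27, Rps28 and Rps29 were at 0.04, 0.02 and 0.03. Across the 83 tested members, 6 had all perampanel libraries above all controls and 7 had them all below, against 7.18% and 6.9% of all genes tested.

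The paralogues differed widely in level and fold change, and Rps27l was the member furthest from 0. Rps27l, which p53 induces in human and mouse cells and which can replace Rps27 in the ribosome, lies on chromosome 9 (66946086 to 66949516). It had 65.3, 67.6 and 84.7 normalized read counts under perampanel and 137, 90.4 and 106 in controls. The groups did not overlap, and control 1 was the highest library. The log2 fold change was -0.60 ± 0.16 (SE, 95% interval -0.92 to -0.27), which missed the threshold (limma adjusted p = 0.0612). It passed without perampanel 3 (log2 -0.71, adjusted p = 0.0225), with the minimum mean raised to 50 (0.0434) and with no filter (0.00919). It was at -0.44 without control 1 (adjusted p = 0.487), and the adjusted p was 0.0529 by edgeR and 0.195 by DESeq2. Rps27l reads were 0.498%, 0.537% and 0.654% of the sum of Rps27l and Rps27 under perampanel, and 1.11%, 0.707% and 0.844% in controls. Of its stretches 22.4% occur in other annotated genes, all pseudogenes, none of which is a row of the table. Of 8 tested genes listed for p53, its targets and Trp53 itself, 0 passed. Mdm2 was at 0.07, Ccng1 at 0.05 and Bax at -0.10. Bbc3, named after its values were seen, was furthest from 0, with 19.4, 26.2 and 43.5 normalized read counts under perampanel and 18.7, 14.6 and 21.1 in controls, which overlapped (log2 0.62, 95% interval 0.015 to 1.22, limma adjusted p = 0.523).

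Rpl22 and its paralogue Rpl22l1 were both abundant. In mice loss of Rpl22 blocks development of alpha-beta T cells, and Rpl22l1 can take its place in the ribosome. Rpl22 was at 2229 ± 45.5 under perampanel and 2282 ± 29.0 in controls, and Rpl22l1 at 1137 ± 27.8 and 1129 ± 62.8. Rpl22l1 made up 34.9%, 33.4% and 33.1% of the reads of the pair under perampanel, and 33.0%, 31.6% and 34.6% in controls, which overlapped. The fold change of Rpl22l1 was 0.01 on the log2 scale (interval -0.10 to 0.13). Rpl7l1, a nucleolar relative of Rpl7, had 106, 112 and 121 under perampanel and 151, 127 and 118 in controls, with overlap, and did not pass (log2 -0.22, interval -0.48 to 0.04). Rpl36al was at -0.22 with an interval from -0.67 to 0.22, which excluded neither sign, and at 0.04 without perampanel 3. Rps27rt was at 0.05 and Rps19bp1 at -0.06 with an interval from -0.72 to 0.60.

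The 3 untested members are paralogues known from other tissues. Rpl3l, the form of striated muscle, had 5 reads in the 6 libraries together, against 15361 for Rpl3. Rpl10l and Rpl39l, forms of the male germ line, had 9 and 17 reads, against 11021 for Rpl10 and 40282 for Rpl39. At these depths 3 reads, the limit that a count of 0 allows by counting error alone, are worth 1.36 to 1.69 CPM in the 6 libraries. Only a large difference in Rpl3l, Rpl10l or Rpl39l could have been seen, and these members were not tested.

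Small movements across the class went by library more than by group. Perampanel 2 held the lowest value of the 6 libraries for 31 of 83 members and the highest for 3, while perampanel 1 held the highest for 33. The median deviation of the members from their own mean was 0.02, -0.02 and 0.01 on the log2 scale in perampanel 1, 2 and 3, and 0.00080, 0.0096 and -0.0059 in controls 1, 2 and 3. Perampanel 1 and 2 thus lay on either side of all 3 controls. Both subunits shared this, with perampanel 1 at 0.02 for each and perampanel 2 at -0.02 for the large and -0.03 for the small subunit.

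**Figure D5:**
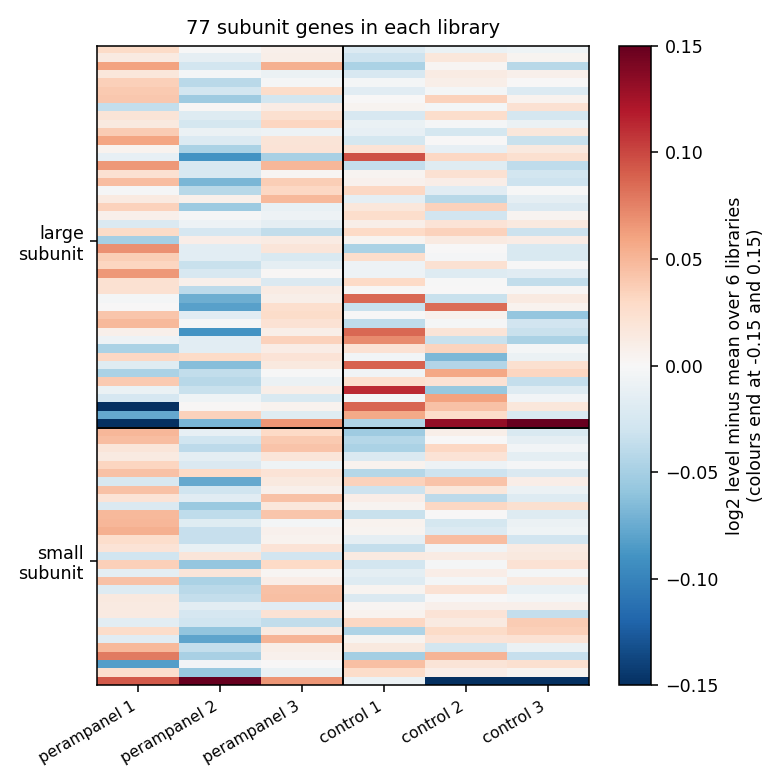
Level of each of the 77 subunit genes (rows, by subunit and falling mean level) in each library (columns) as log2 minus its mean over 6 libraries, with colours ending at -0.15 and 0.15. Perampanel 1 is mostly above and perampanel 2 mostly below the mean.

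Genes that work with the ribosomal proteins changed in single cases. Fau and Rack1, ribosomal proteins that the naming rule does not take, were at 0.03 (95% interval -0.05 to 0.10) and -0.0047 (-0.08 to 0.07) on the log2 scale. Of 20 tested genes of other TOP mRNAs 1 fell and none rose by limma, with a median of -0.04. The 1 was Nap1l1, a histone chaperone, with 1138, 1094 and 1185 normalized read counts under perampanel and 1392, 1317 and 1385 in controls, without overlap (log2 -0.26, limma adjusted p = 0.00799). The elongation factors Eef1a1 (0.02) and Eef2 (-0.02) and the poly(A) binding protein Pabpc1 (0.0022) did not pass. Npm1, a nucleolar chaperone, was at -0.18 (adjusted p = 0.0733). None of 40 ribosome assembly genes passed (15 positive, 25 negative, median -0.09), nor did any of 19 genes of RNA polymerase I and its factors (3 positive, 16 negative, median -0.15). Those 19 include subunits shared with other RNA polymerases, such as Polr2l, the lowest of them at -0.71. Over all 9076 genes tested, 4561 were positive and 4515 negative, and limma called 1.1%. Myc, which drives ribosome production, was at 115 ± 20.4 under perampanel and 148 ± 14.1 in controls (log2 -0.37, adjusted p = 0.279). Of 17 tested genes of the mTORC1 pathway 1 rose, its inhibitor Ddit4. It had 647, 613 and 747 under perampanel and 523, 554 and 524 in controls, without overlap (log2 0.32, limma adjusted p = 0.0223). Larp1 was at 0.0043. Proteins of the mitochondrial ribosome are encoded by a separate set of 77 genes, of which none passed either. There 22 were positive and 55 negative, with a median of -0.12 beside 0.00040 for the cytosolic members; that difference was not tested.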

How the data were processed

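The authors deposited 1 table for 6 libraries, with a normalized signal per gene (reads over a size factor of the library). It gives the authors' own comparison too: log2 fold change and its error, a test score, and a p-value raw and adjusted. The submitters' processing notes name DESeq2, DESeq and build GRCm38. Aligner, counter and annotation: not given in the sources used here. Libraries were made from 100 ng of total RNA with 12 PCR cycles and a kit that does not mark strand, so overlapping genes on opposite strands cannot be told apart, per the labels' protocols, and reads carry no molecular identifiers. Every value was a whole multiple of its library's smallest (100% within 1e-06), which gave back the reads used for depths, shares and the edgeR 4.0.16 and DESeq2 1.42.0 tests.

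Genes with a mean of at least 10 were tested with limma-trend 3.58.1 (R 4.3.3) on log2(value + 1), treatment as the only factor, with Benjamini-Hochberg adjustment over all 9076 genes. Fold changes are on that scale. The tests were tried on simulated data in which every gene had the same spread beyond counting error. That spread was not taken from the members, so their narrow intervals were not tried there. Members and gene lists were chosen with earlier results of these data known. Named were the 10 members of smallest p, the 5 of highest and the 5 tested members of lowest level per kb, and a fixed set of stalk, 5S particle and paralogue genes. Positions and transcripts are from GENCODE mouse (GRCm38), in which all 86 members matched once and are protein-coding. Levels per kb use the shortest well-supported principal transcript, which is long for Rps15a and Rps20. Replicate numbers are shared between the groups, but nothing ties same-numbered mice to one another.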

Additional observations from a re-analysis of the deposited data

How the results depend on the processing

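There were 19 alternatives to the fit, 1 of them (adding rows that share sequence with a member) chosen after seeing the data. Members called higher stayed at 0 in each. Members called lower were 1 with quantile normalization (Rpl41, also the only large subunit gene called under any alternative), 1 at a mean of at least 50 and 1 with no filter (Rps27l), and 0 to 1 when 1 library was left out. The count over all genes tested, 100, was 179 with no filter, 50 with DESeq2, and 44 to 113 with 1 library left out, at 44 without control 1 and 55 without control 2. The median fold change of the members ran from -0.010 to 0.014 on the log2 scale over all alternatives to the fit. The share difference ran from -0.24 to -0.044 percentage points over the 6 left-out libraries and 2 changes of the member set, the alternatives run for it. None of these changed the total that the share was taken of, all reads of a library. With the replicate number as a block 103 genes and 0 members were called, Rps27l had a limma adjusted p of 0.0766, and same-numbered libraries had correlations of their deviations of 0.033, 0.033 and 0.016, so the numbers were not taken as pairs, though each library correlated best with its own number, a hint from the data and not the design. Sign changes of genes whose interval covered 0 were not counted as reversals. Depth limits Rps27l, Rps10 and the other low-count members.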
